A study of Mus musculus with 12 samples.

Results

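MHC class I antigen presentation was followed in mouse liver through 10 genes that were chosen by symbol: the heavy chains H2-K1 and H2-D1, the light chain B2m, the peptide transporter subunits Tap1 and Tap2, the loading factor Tapbp, the immunoproteasome subunits Psmb8, Psmb9 and Psmb10, and the transactivator Nlrc5. Each symbol matched 1 Ensembl identifier, so that 10 of the 40551 genes in the count tables were members, and all 10 passed the filter on low counts. RNA sequencing of whole liver was available from 12 mice, 3 of each of 4 genotypes, and the totals ranged from 28826367 to 45266387 counts per library. WT mice carried neither deletion. Mcl1Δhep mice lacked the anti-apoptotic gene Mcl1 in hepatocytes through a Cre recombinase driven by the albumin promoter, so that other liver cells kept the gene. Sting1-/- mice lacked Sting1, the adaptor that relays cytosolic DNA sensing, in the whole body, and Mcl1Δhep Sting1-/- mice carried both deletions. The methods describe liver transcriptomes of WT and Mcl1Δhep mice at 2 months of age and, for the study as a whole, ages of 2 and 12 months for WT, Mcl1Δhep and double mutant mice, with both sexes used. The labels give no age or sex for any library, and no age is given for the Sting1-/- group in the sources used here. The comparisons address whether hepatocyte loss of MCL1 changed the antigen presentation genes and whether that change depended on STING. All tests and adjusted p-values for single genes are from edgeR's quasi-likelihood test over 15070 genes with Benjamini-Hochberg adjustment, with 0.05 as the threshold, and the p-values measure only the spread between these livers.

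MHC class I molecules display peptides from the interior of a cell to CD8 T cells and natural killer cells. Proteasomes cut proteins into peptides, TAP1 and TAP2 carry the peptides into the endoplasmic reticulum, tapasin (Tapbp) helps to load them, and a heavy chain paired with beta-2 microglobulin (B2m) carries them to the surface. Interferons raise most of these genes, replace the standard catalytic proteasome subunits by the immunosubunits, and induce NLRC5, which acts at a conserved promoter element of class I genes. Hepatocytes make little class I at rest compared with leukocytes and sinusoidal endothelium.

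The members fell into 3 places in the genome (GRCm39, GENCODE vM39). H2-K1 (ENSMUSG00000061232, chromosome 17:34214987-34219321, minus strand) and H2-D1 (ENSMUSG00000073411, 17:35481691-35486475, plus strand) lay in the MHC with Tapbp (ENSMUSG00000024308, 17:34134873-34148267, plus), Psmb9 (ENSMUSG00000096727, 17:34400960-34406738, minus), Tap1 (ENSMUSG00000037321, 17:34405996-34416199, plus), Psmb8 (ENSMUSG00000024338, 17:34416690-34420428, plus) and Tap2 (ENSMUSG00000024339, 17:34422501-34435829, plus). Nlrc5 (ENSMUSG00000074151, 8:95160984-95253900, plus) and Psmb10 (ENSMUSG00000031897, 8:106662362-106665077, minus) were on chromosome 8, and B2m (ENSMUSG00000060802, 2:121977957-121983594, plus) was on chromosome 2. Psmb9 and Tap1 lie head to head on opposite strands and share 743 exonic bases, 19.6% of the exonic length of Psmb9 and 12.4% of that of Tap1. The strand setting of the counting is not given in the sources used here, so reads from the shared stretch cannot be assigned to either gene. H2-K1, H2-D1 and some of the other class I heavy chains are closely similar paralogs, and the counting may have split or dropped reads that matched several of them.

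The promoters of H2-K1 and H2-D1 are shown because these paralogs gave different values in the comparisons although they share the class I promoter layout. The stretches were taken from RefSeq promoter windows of GRCm38.p6, which span 250 bases before to 50 bases after each start, and were placed on GRCm39 by an exact match. They are written 5′ to 3′ on the strand of the gene, and capitals mark, in this order, the enhancer A core, the interferon-stimulated response element core, the X2 core and the Y core. The H2-D1 stretch also shows an inverted second Y core at its end, and the H2-K1 window holds one too, past the start and outside the stretch printed. The H2-K1 stretch is chr17:34219323-34219441 on the minus strand and the H2-D1 stretch is chr17:35481890-35482031 on the plus strand, which lies inside a longer GENCODE model of H2-D1 although it is upstream of the RefSeq start.
H2-K1: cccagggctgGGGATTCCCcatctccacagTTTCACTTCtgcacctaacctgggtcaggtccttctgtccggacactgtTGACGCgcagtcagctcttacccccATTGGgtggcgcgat
H2-D1: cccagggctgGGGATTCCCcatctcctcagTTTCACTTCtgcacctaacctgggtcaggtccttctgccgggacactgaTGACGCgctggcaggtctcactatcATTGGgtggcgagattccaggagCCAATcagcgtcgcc

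From the enhancer A core to the Y core, 88 of 99 bases of H2-K1 and H2-D1 were identical. The search used both strands and the letters GGGATTCCC for enhancer A, which NF-κB binds, GAANNGAAA for the interferon-stimulated response element, which interferon regulatory factors bind, TGACGC for X2, ATTGG for Y, and TTCNNNGAA for the gamma-activated site. Among 32851 promoter windows, 0.353% held the enhancer A core, 7.52% the response element core, 7.4% the X2 core, 37.4% the Y core and 8.3% the gamma-activated site. Of these windows, only those of H2-K1 and H2-D1 held all of the first 4 cores. The letters were revised after the H2-K1 window was seen, so this match is a description and not a test. The table had windows for 8 of the 10 members and none for Tap2 or Nlrc5. The Y core, which NF-Y binds, was found in 6 of these 8 members and in 37.4% of all windows. Tap1 and Psmb9 share 1 such site between their divergent starts, and the B2m stretch (chr2:121978105-121978129, plus strand) holds another. The gamma-activated site was found in the Psmb8 window only (chr17:34417062-34417090, plus strand). The 4 stretches below have the match in capitals, with Tap1 at chr17:34406298-34406322 on the plus strand and Psmb9 at chr17:34406305-34406322 on the minus strand.
B2m: ctgagtccggATTGGctgtgagttc
Psmb8: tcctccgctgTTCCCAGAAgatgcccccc
Tap1: gctcggctttCCAATcagcggctgc
Psmb9: gcagccgctgATTGGaaa

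Per kilobase of exon, B2m and the classical heavy chains were far above the other 7 members in every genotype. Levels are given in CPM, the counts of a gene scaled to a library of 1000000 counts. B2m had a mean level of 673 CPM per kb, with 452 to 908 over the 12 libraries. H2-K1 followed with 378 CPM per kb (238 to 530), and H2-D1 had 216 CPM per kb (192 to 282). The ranges over the 12 libraries overlapped between B2m and H2-K1 and between H2-K1 and H2-D1. Tapbp was next at 29.9 CPM per kb (22.7 to 34.4), followed by Psmb10 at 24.6 (15.8 to 31.0) and Psmb8 at 12.1 (8.93 to 15.8). Tap2 at 6.56 CPM per kb (4.81 to 8.53), Tap1 at 4.89 (3.78 to 6.84) and Psmb9 at 4.45 (3.15 to 6.37) had overlapping ranges, and Nlrc5 was lowest at 1.74 (0.901 to 2.51). The depth was sufficient for all of them, with 242 to 773 counts per library for Nlrc5 and 31134 to 60218 for B2m.

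The targeted genes were examined first. Mcl1 stood at 90.2, 102.0 and 103.8 CPM in WT livers and at 27.9, 34.0 and 25.0 CPM in Mcl1Δhep livers, a log2 difference of -1.77 ± 0.16 (SE; adjusted p = 0.000605), and all 3 Mcl1Δhep Sting1-/- libraries, at 18.1 to 26.0 CPM, were below all 3 Sting1-/- libraries, at 77.0 to 90.1 CPM. Sting1 counts did not separate the genotypes in the same way. They were 2.53, 2.43 and 2.11 CPM in WT livers, 1.16, 1.72 and 2.7 CPM in Sting1-/- livers, and 1.9, 2.53 and 2.33 CPM in Mcl1Δhep Sting1-/- livers, against 4.59, 6.0 and 3.67 CPM in Mcl1Δhep livers. Sting1 rose in Mcl1Δhep against WT livers (log2 difference 1.01, adjusted p = 0.0324), a call that was lost without any one of WT libraries 1, 2 and 3 and Mcl1Δhep library 2, with adjusted p up to 0.13. The gene count alone therefore does not show the Sting1 deletion, and the Sting1 genotypes below are those of the labels. For Sting1-/- mice, the paper reports the knockout by Western blot and no IRF3 phosphorylation in splenocytes given a STING agonist.

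Several library features moved with genotype. Counts of small structured RNAs took 1.55% and 2.77% of Mcl1Δhep libraries 3 and 2, against 0.192% to 0.98% of the other 10 libraries. Genes of the Y chromosome were expressed in WT libraries 2 and 3 and in Mcl1Δhep Sting1-/- library 1 only, and skeletal muscle genes took 0.136% of Mcl1Δhep library 3. The summed level of 8 pan-leukocyte markers was 184 to 237 CPM in WT, 254 to 311 CPM in Mcl1Δhep, 183 to 220 CPM in Sting1-/- and 261 to 279 CPM in Mcl1Δhep Sting1-/- livers, and none of the 8 was at 0 in any group. Of these 8 markers, 6 rose in Mcl1Δhep against WT livers, where 10.8% of all genes tested rose. So did 8 of 12 macrophage markers, 5 of 14 tested T and natural killer cell markers, and 3 of 5 tested neutrophil markers. Of 5 B cell, 7 sinusoidal endothelium and 5 cholangiocyte markers, none passed the test in either direction. Hepatocyte markers summed to 104784 to 159590 CPM in WT and 106973 to 146983 CPM in Mcl1Δhep livers. Of these markers, 1 of 8 fell, where 9.43% of all genes tested fell. In these bulk samples, fewer cells of a type and less RNA per cell cannot be told apart.

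In Mcl1Δhep against WT livers, the heavy chain H2-K1 and its partner B2m fell, and none of the 10 members rose. H2-K1, a classical heavy chain that presents peptides to CD8 T cells, stood at 1403, 1223 and 1688 CPM in WT livers and at 866, 759 and 1053 CPM in Mcl1Δhep livers. Every Mcl1Δhep liver was below every WT liver. The log2 difference was -0.69 ± 0.17 (SE; 95% interval -1.06 to -0.31; adjusted p = 0.0182), a level 37.9% lower. B2m, which every class I heavy chain needs to reach the surface, stood at 1589, 1517 and 1913 CPM in WT and 1160, 953 and 1355 CPM in Mcl1Δhep livers, again with no overlap. Its log2 difference was -0.53 ± 0.16 (95% interval -0.89 to -0.18; adjusted p = 0.0385), a level 30.9% lower.

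Thus 2 of 10 members passed the test, both lower, where 20.2% of all genes tested passed and 9.43% passed as lower. For 17.1% of all genes tested, every Mcl1Δhep library was below every WT library, as for these 2 members, and for 16.2% every one was above, as for no member. The median log2 difference of the members was -0.22, beside -0.005 over all genes tested. The H2-K1 call was lost without WT library 3 (adjusted p = 0.0748) or without Mcl1Δhep library 2 (adjusted p = 0.0745), fits in which 10.3% and 8.09% of all genes tested passed, and the B2m call was lost in 9 of the 12 fits that left out 1 library, all but those without Mcl1Δhep library 1 or 3 or double mutant library 1, with adjusted p from 0.0231 to 0.139 over all 12.

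Mcl1Δhep library 1 had a structured RNA share of 0.314%, within the WT range of 0.192% to 0.42%, and its H2-K1 (866 CPM) and B2m (1160 CPM) were below all 3 WT libraries. WT library 1, which expressed no Y-linked gene, like all 3 Mcl1Δhep libraries, had H2-K1 at 1403 CPM and B2m at 1589 CPM, above all 3 Mcl1Δhep libraries. Each of these values rests on 1 library. With the structured RNA share as a covariate, the log2 difference of H2-K1 was -0.75 (adjusted p = 0.121) and that of B2m was -0.55 (adjusted p = 0.207), and with Y-linked expression as a covariate they were -0.71 (adjusted p = 0.0586) and -0.45 (adjusted p = 0.16). Neither gene passed in either fit. Beyond these fits, the part of either feature in the fall of H2-K1 and B2m was not tested. Under upper-quartile scaling, H2-K1 stayed below the threshold at -0.54 (adjusted p = 0.0462) while B2m did not, at -0.39 (adjusted p = 0.115).

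**Figure D1:**
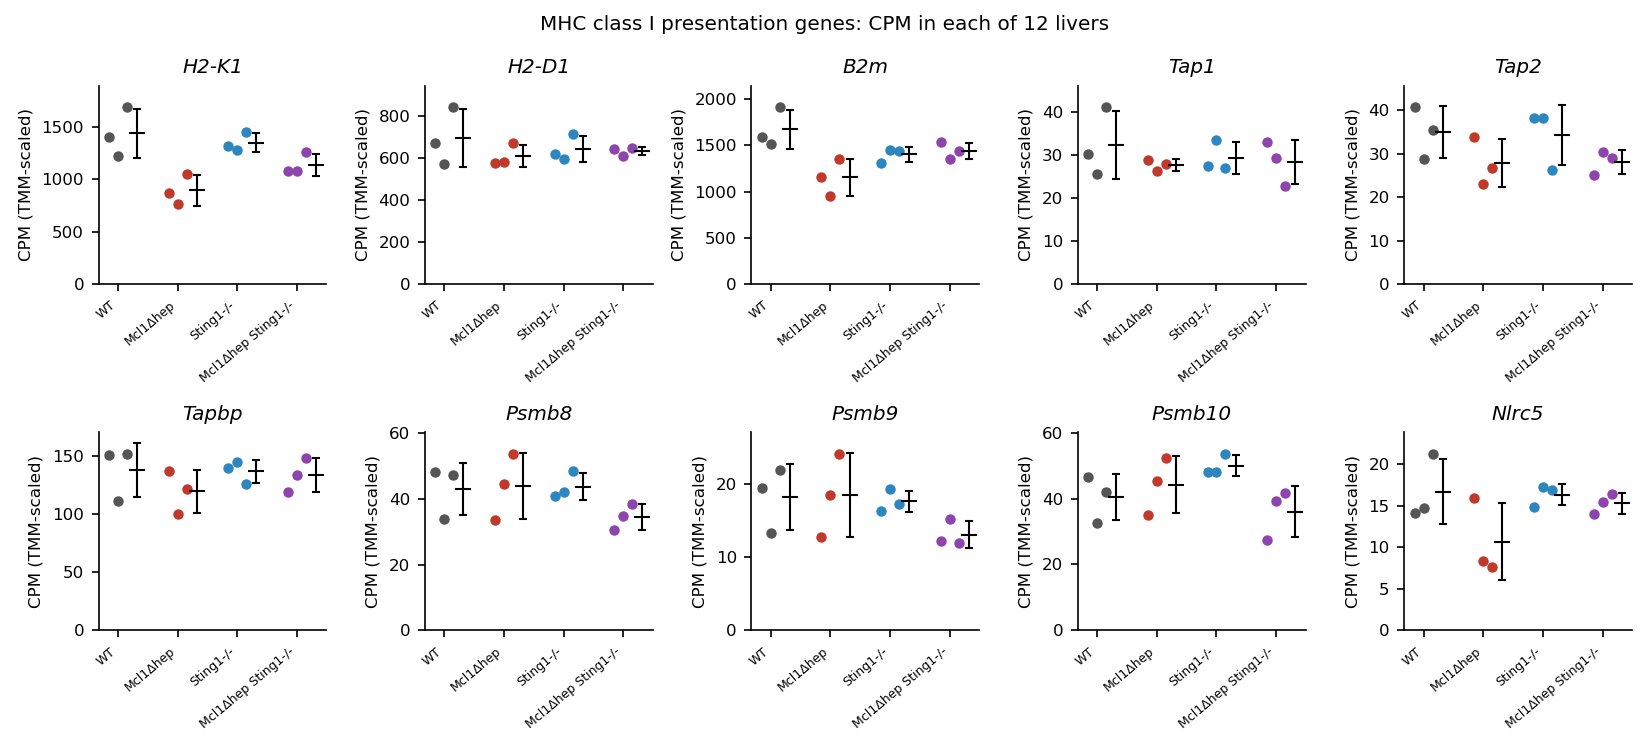
Levels of the 10 MHC class I genes in the 12 livers, in CPM on the vertical axis of each panel, by genotype. Points are livers, and the black dash and bars are the mean ± SD (n = 3). The 3 Mcl1Δhep points of H2-K1 (759 to 1053 CPM) and of B2m (953 to 1355 CPM) lie below all 3 WT points, whereas those of Psmb8, Psmb9 and Psmb10 spread over the WT range.

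H2-D1, the other classical heavy chain, did not pass the test. It stood at 674, 573 and 844 CPM in WT and 576, 583 and 671 CPM in Mcl1Δhep livers, with overlapping groups and a log2 difference of -0.19 (adjusted p = 0.414). The ratio of H2-K1 to H2-D1 counts, which was chosen after these values were seen and is given as a description, compares both genes within a library. It was 2.08, 2.13 and 2.0 in WT livers and 1.5, 1.3 and 1.57 in Mcl1Δhep livers. In Sting1-/- livers it was 2.11, 2.15 and 2.03, and in Mcl1Δhep Sting1-/- livers it was 1.67, 1.76 and 1.94. All 6 livers without hepatocyte Mcl1 were below all 6 livers with it, and the double mutants lay between the Mcl1Δhep livers and the other 2 groups.

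On the log2 scale, the mean ratio in Mcl1Δhep livers differed from WT by -0.51, and leaving out each library in turn gave -0.57 to -0.43. The mean in double mutants differed from Mcl1Δhep livers by 0.30 (0.22 to 0.36) and from Sting1-/- livers by -0.23 (-0.29 to -0.18), and that of Sting1-/- livers differed from WT by 0.02 (-0.01 to 0.04). Since these genes are paralogs, a different split of reads that match both was not tested as a part of this ratio.

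**Figure D2:**
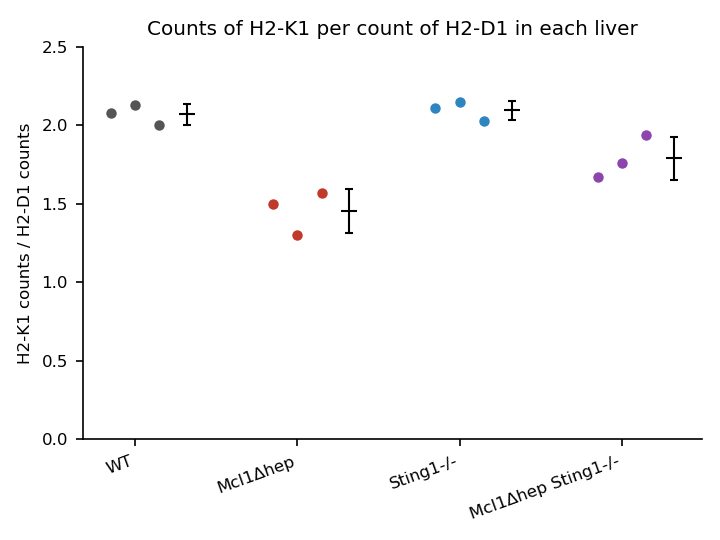
Ratio of H2-K1 to H2-D1 counts within each liver (vertical axis, linear) by genotype. Points are livers, and the black dash and bars are the mean ± SD (n = 3). The WT and Sting1-/- livers sit between 2.0 and 2.15, the Mcl1Δhep livers between 1.3 and 1.57, and the Mcl1Δhep Sting1-/- livers between 1.67 and 1.94.

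Nlrc5, the transactivator of class I genes, did not pass the test and was uneven among the Mcl1Δhep livers. It stood at 14.2, 14.7 and 21.3 CPM in WT livers and at 16.0, 8.35 and 7.65 CPM in Mcl1Δhep livers. Libraries 2 and 3 were low, and these were the libraries with structured RNA shares of 2.77% and 1.55%, while library 1, with a share of 0.314%, was inside the WT range. The log2 difference was -0.64 ± 0.25 (95% interval -1.2 to -0.09; adjusted p = 0.0903), and without Mcl1Δhep library 1 it was -1.07 (adjusted p = 0.00232), in a fit where 34.1% of all genes tested passed. In Sting1-/- livers Nlrc5 stood at 14.9, 17.3 and 16.9 CPM and in double mutants at 14.0, 15.5 and 16.4 CPM. RNA quality itself was not measured here, and its part in the low values of libraries 2 and 3 was not tested.

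The transporter and loading members did not pass the test. Tap1 ranged from 25.5 to 41.1 CPM in WT and from 26.2 to 28.8 CPM in Mcl1Δhep livers (log2 difference -0.23, adjusted p = 0.403). Tap2 ranged from 28.7 to 40.7 CPM and from 22.9 to 33.9 CPM (log2 difference -0.33, adjusted p = 0.244), and Tapbp from 111 to 152 CPM and from 100.2 to 137 CPM (log2 difference -0.21, adjusted p = 0.391). Among 13 other genes of peptide supply and loading, 3 fell and none rose, where 9.43% of all genes tested fell and 10.8% rose, with a median log2 difference of -0.36. Erap1, the aminopeptidase that trims peptides in the endoplasmic reticulum, had the smallest adjusted p of the 3. It stood at 177, 166 and 173 CPM in WT and at 113, 71.9 and 94.3 CPM in Mcl1Δhep livers, a log2 difference of -0.89 (adjusted p = 0.00696), and it was past the threshold in every fit that left out 1 library. The chaperone gene Canx (log2 difference -0.49, adjusted p = 0.0375) and the glycoprotein folding sensor Uggt1 (-0.58, adjusted p = 0.0371) also fell, but lost their calls in some of those fits.

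The immunoproteasome subunits did not pass the test in Mcl1Δhep against WT livers. Psmb8, the immunosubunit that takes the place of Psmb5, stood at 48.1, 34.0 and 47.3 CPM in WT and 33.5, 44.5 and 53.8 CPM in Mcl1Δhep livers, a log2 difference of 0.03 (adjusted p = 0.933). Psmb9, which takes the place of Psmb6, stood at 19.5, 13.3 and 22 CPM and 12.8, 18.6 and 24.2 CPM, a log2 difference of 0.02 (adjusted p = 0.959). Psmb10, which takes the place of Psmb7, stood at 46.4, 32.7 and 41.9 CPM and 35.0, 45.3 and 52.2 CPM, a log2 difference of 0.13 (adjusted p = 0.654). The groups overlapped for all 3, and within the Mcl1Δhep group library 1 was the lowest and library 3 the highest in each. None of 14 genes of the standard proteasome core passed the test (median log2 difference 0.15), and neither did the interferon-inducible proteasome activator genes Psme1 and Psme2.

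The ratio of counts of each immunosubunit to counts of the standard subunit it replaces, within a library and not scaled for gene length, was compared as well. Psmb8 to Psmb5 was 1.3, 0.775 and 1.04 in WT, 0.976, 0.663 and 0.793 in Mcl1Δhep, 1.03, 1.22 and 1.01 in Sting1-/- and 0.729, 0.96 and 0.97 in Mcl1Δhep Sting1-/- livers. Psmb9 to Psmb6 was 0.113 to 0.18, 0.101 to 0.138, 0.116 to 0.17 and 0.0948 to 0.14 in the same order, and Psmb10 to Psmb7 was 0.26 to 0.423, 0.323 to 0.372, 0.395 to 0.444 and 0.234 to 0.346. Against WT, the log2 differences in Mcl1Δhep livers were -0.34, -0.36 and 0.07 (two-sided exact permutation p = 0.3, 0.3 and 0.8, with 0.1 as the smallest p that 3 against 3 allows). In double mutants against Sting1-/- livers, the ratios of Psmb8 and Psmb10 did not overlap and differed by -0.3 and -0.49 on the log2 scale (exact p = 0.1 for each, adjusted p = 0.375 over 15 tests). Over both Sting1 backgrounds, permuting within background, the Psmb8 to Psmb5 ratio differed by -0.32 (exact p = 0.045, adjusted p = 0.375), and no ratio passed after adjustment.

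**Figure D3:**
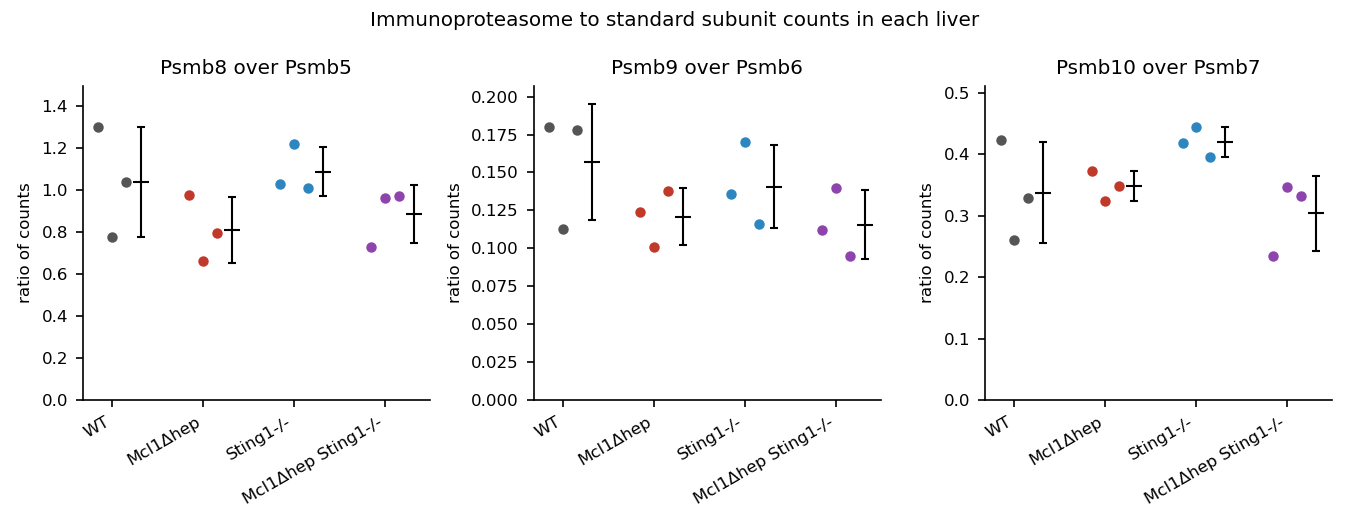
Ratio of counts of each immunoproteasome subunit to counts of its standard counterpart within each liver, in 3 panels on linear vertical axes, by genotype. Points are livers, and the black dash and bars are the mean ± SD (n = 3). The Psmb10 to Psmb7 ratio of the Mcl1Δhep Sting1-/- livers (0.234 to 0.346) lies below that of the Sting1-/- livers (0.395 to 0.444), whereas the Mcl1Δhep livers (0.323 to 0.372) lie inside the WT range.

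Heavy chains outside the members had 2 genes that rose, 1 of them at a low level. Among 18 tested of 21 listed other class I chains, H2-M2 and H2-Q1 passed the test, both higher. This share was near that of all genes tested, of which 10.8% passed as higher. H2-M2, a nonclassical chain, stood at 0.119 to 0.29 CPM in WT and 1.26 to 2.02 CPM in Mcl1Δhep livers (log2 difference 3.15, adjusted p = 0.00133), from 4 to 11 and 54 to 66 counts. H2-Q1 was uneven in WT at 22.5, 3.44 and 7.33 CPM and stood at 25.3, 36.9 and 58.7 CPM in Mcl1Δhep livers (log2 difference 1.86, adjusted p = 0.0324). H2-Q10, a secreted class I chain made by hepatocytes, ranged from 1545 to 2060 CPM in WT and 1857 to 2353 CPM in Mcl1Δhep livers, and H2-T23, the ligand chain of an inhibitory natural killer receptor, from 178 to 328 CPM and 231 to 315 CPM. Neither passed the test. H2-Q10 held 37.7% to 54.9% of all listed heavy chain counts over the 12 libraries, H2-K1 19.1% to 34.3% and H2-D1 13.8% to 17.2%. Summed over 18 heavy chain genes, H2-K1 and H2-D1 included, the log2 difference between Mcl1Δhep and WT livers was -0.12 (adjusted p = 0.6).

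Of 18 regulators of the pathway tested, 3 rose and 1 fell in Mcl1Δhep against WT livers, a share near the 20.2% of all genes that passed. Irf8, a transcription factor known from myeloid cells, rose by a log2 difference of 1.16 (adjusted p = 0.00116), and the noncanonical NF-κB subunits Nfkb2 (1.07, adjusted p = 0.0131) and Relb (1.11, adjusted p = 0.0224) rose with it. Irf2, a constitutively expressed interferon regulatory factor, fell by 0.57 (adjusted p = 0.0324). The interferon-responsive factor Irf1, at 19.5 to 52.4 CPM in WT and 30.9 to 49.0 CPM in Mcl1Δhep livers, did not pass, nor did Rfx5, a subunit of the X box complex. Across Irf1, Rfx5, H2-T23, H2-Q10, Psme1, Psme2, Psmb5, Psmb6 and Psmb7, adjusted p ranged from 0.167 to 0.916. Of 8 tested genes of interferon input, the interferon gamma receptor chains Ifngr1 (log2 difference 0.71, adjusted p = 0.0167) and Ifngr2 (0.85, adjusted p = 0.00468) rose and the type I receptor chain Ifnar2 (-0.5, adjusted p = 0.0277) fell. Ifng had 0 to 9 counts per library and Ifnb1 had 0 in all, so that a difference in these interferon transcripts was not detectable at this depth.

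The calls of Irf8, Ifngr2 and H2-M2 were past the threshold in all 12 fits that left out 1 library. Those of H2-Q1, Canx, Uggt1, Irf2, Nfkb2, Relb, Ifnar2 and Ifngr1 were each lost in 2 to 8 of the 12 fits, and each of the 6 WT and Mcl1Δhep libraries cost at least 1 of these calls when it was left out. Beside the Irf8 value, the pan-leukocyte sum was 254 to 311 CPM in Mcl1Δhep and 184 to 237 CPM in WT livers. With the mean level of these markers as a covariate, 0 of 15070 genes passed, so none of these calls held in that fit, nor did that of the deleted gene Mcl1. The marker mean did not overlap between WT (3.38 to 3.76 log2 CPM) and Mcl1Δhep livers (4.35 to 4.78). That fit therefore cannot tell leukocyte content apart from genotype. The part of leukocyte content in the rise of Irf8, Ifngr1, Nfkb2 and Relb was not tested.

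Leukocytes carry class I at high levels, so the members were set beside the leukocyte markers. The mean log2 CPM of the 10 members minus that of the 8 pan-leukocyte markers was 3.35, 3.01 and 3.13 in WT livers and 2.0, 1.5 and 2.18 in Mcl1Δhep livers. It was 3.2, 2.81 and 2.81 in Sting1-/- livers and 2.34, 2.25 and 2.34 in double mutants. The gap was smaller in all 6 livers without hepatocyte Mcl1 than in the other 6. The member mean itself moved less, with 6.41 to 6.89 in WT, 6.28 to 6.53 in Mcl1Δhep, 6.61 to 6.69 in Sting1-/- and 6.37 to 6.5 in double mutant livers, while the marker mean was 3.38 to 3.76, 4.35 to 4.78, 3.4 to 3.88 and 4.04 to 4.24 in the same order.

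**Figure D4:**
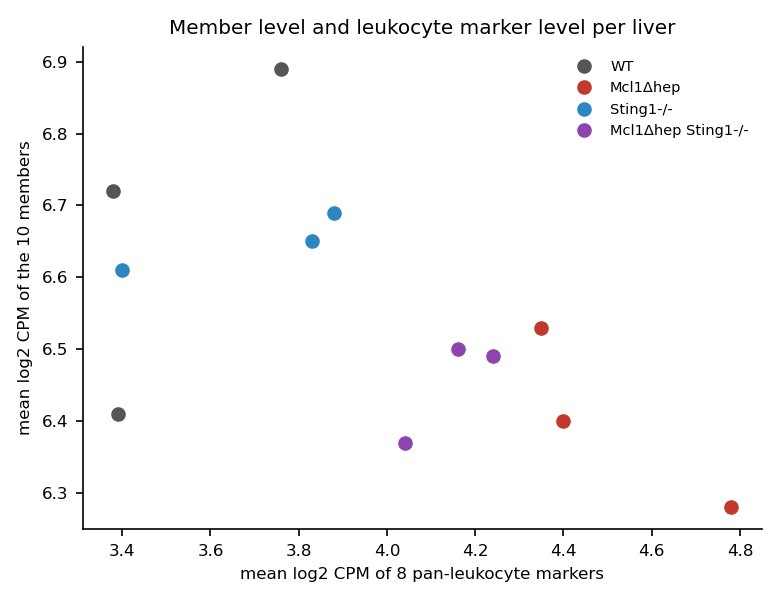
Mean log2 CPM of the 10 MHC class I genes (vertical axis) against the mean log2 CPM of 8 pan-leukocyte markers (horizontal axis), 1 point per liver, coloured by genotype. The Mcl1Δhep livers lie at the right, with marker means of 4.35 to 4.78 and member means of 6.28 to 6.53, and the WT livers at the left, with marker means of 3.38 to 3.76 and member means of 6.41 to 6.89.

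Whether Sting1 deletion changed these genes in the absence of hepatocyte Mcl1 was examined in Mcl1Δhep Sting1-/- against Mcl1Δhep livers. No member passed the test, where 0% of all genes tested passed. An unadjusted p under 0.05 was found for 3098 of 15070 genes tested and for no member. DESeq2 called 681 of 14277 genes (4.77%) and no member. At so low a share, the absence of members from the DESeq2 calls says nothing about them. H2-K1 stood at 1074, 1077 and 1261 CPM in the double mutants, above all 3 Mcl1Δhep libraries, with a log2 difference of 0.35 (95% interval -0.02 to 0.72; adjusted p = 0.268). It was the only member whose groups did not overlap, where 8.97% of all genes tested were higher in every double mutant library and 9.28% were lower. B2m, at 1533, 1352 and 1436 CPM in the double mutants, had a log2 difference of 0.32 (95% interval -0.04 to 0.67; adjusted p = 0.286), and Nlrc5 had 0.52 (95% interval -0.04 to 1.07; adjusted p = 0.269). The immunoproteasome subunits had the opposite sign, at -0.34 for Psmb8, -0.49 for Psmb9 and -0.29 for Psmb10, with adjusted p from 0.251 to 0.409. Erap1 stood at 124, 150 and 155 CPM, above all Mcl1Δhep livers, with a log2 difference of 0.62 (adjusted p = 0.135, or 0.0265 by DESeq2).

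The calls of 3 of these genes depended on Mcl1Δhep library 1, whereas H2-K1, B2m, Psmb8 and Psmb10 did not pass in any fit that left out 1 library. Without Mcl1Δhep library 1, 3108 genes (20.2%) passed in place of 0, and 2 of 10 members were among them. Nlrc5 then differed by 0.94 (adjusted p = 0.00708) between double mutant and Mcl1Δhep livers, Psmb9 by -0.70 (adjusted p = 0.0383) and Erap1 by 0.79 (adjusted p = 0.00929). The Mcl1Δhep group then held only the 2 libraries with structured RNA shares of 1.55% and 2.77%, against 0.49% to 0.621% in the double mutants. RNA quality itself was not measured here, and its part in these differences between double mutant and Mcl1Δhep livers was not tested.

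On the Sting1-/- background, Mcl1 deletion did not change any member past the threshold, where 0.803% of all genes tested passed, 0.677% as higher and 0.126% as lower. Leaving out 1 library moved that count of 121 genes to between 1 and 3 without any one Sting1-/- library or without double mutant library 1 or 2, to 52, 59 and 65 without WT library 2, WT library 3 and Mcl1Δhep library 2, and to 249 without double mutant library 3. H2-K1 stood at 1316, 1276 and 1451 CPM in Sting1-/- livers, above all 3 double mutants, with a log2 difference of -0.24 (95% interval -0.62 to 0.13; adjusted p = 0.682). B2m stood at 1313, 1453 and 1441 CPM in Sting1-/- livers and overlapped the double mutants, with a difference of 0.04 (adjusted p = 0.961). The immunosubunits were lower in every double mutant than in every Sting1-/- liver. Psmb8 stood at 40.8, 42.0 and 48.4 CPM in Sting1-/- against 30.5, 34.9 and 38.4 CPM in double mutant livers (log2 difference -0.34, adjusted p = 0.563). Psmb9 stood at 16.4, 19.3 and 17.3 CPM against 12.2, 15.2 and 12 CPM (-0.43, adjusted p = 0.546), and Psmb10 at 48.2, 48.1 and 53.6 CPM against 27.4, 39.2 and 41.6 CPM (-0.47, unadjusted p = 0.0334, adjusted p = 0.377 by edgeR). Together with H2-K1, 4 of 10 members were lower without overlap, where 10.8% of all genes tested were, and none was higher without overlap, where 11.5% were. An unadjusted p under 0.05 was found for 1 of 10 members, Psmb10, and for 1709 of 15070 genes tested, a similar share. H2-M2 rose on this background too, from 0.0582 to 0.169 CPM in Sting1-/- to 0.635 to 0.739 CPM in double mutant livers (log2 difference 2.46, adjusted p = 0.0305), a call that was lost without any one Sting1-/- library or without double mutant library 1 or 2, with adjusted p up to 0.17.

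**Figure D5:**
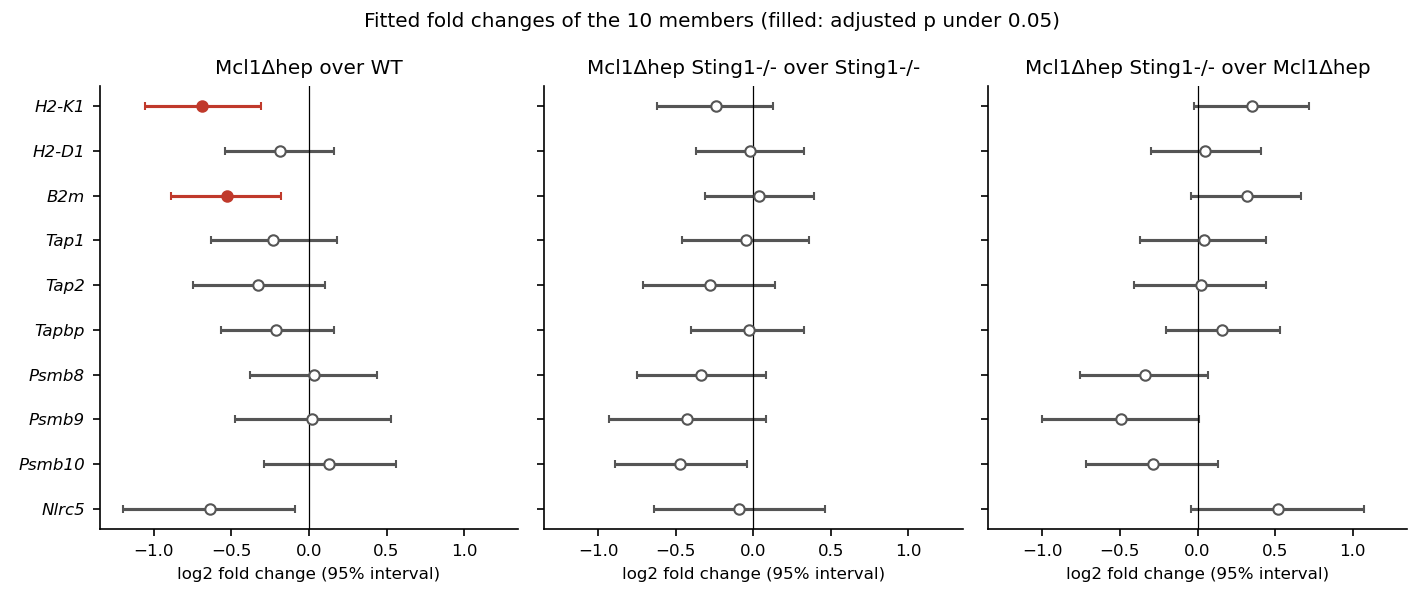
Log2 differences of the 10 MHC class I genes from edgeR, with 95% intervals as bars. The panels show Mcl1Δhep against WT, Mcl1Δhep Sting1-/- against Sting1-/-, and Mcl1Δhep Sting1-/- against Mcl1Δhep livers. Filled points have an adjusted p under 0.05, and the vertical line marks 0. H2-K1 (-0.69) and B2m (-0.53) are filled in Mcl1Δhep against WT, and no other point is filled.

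Sting1 deletion alone was compared with WT. No member passed in Sting1-/- against WT livers, where 0% of all genes tested did. Of 15070 genes tested, 821 had an unadjusted p under 0.05, and no member did. DESeq2 called 52 of 16086 genes (0.323%) and no member. At such low shares, the absence of members says nothing about them. The log2 differences of the 10 members ran from -0.25 to 0.31, with a median of -0.04. B2m was lower without overlap (-0.25, adjusted p = 0.998) and Psmb10 was higher without overlap (0.31, adjusted p = 0.998), where 5.46% and 7.06% of all genes tested were.

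The interaction tests whether the Mcl1 effect differed between the Sting1 backgrounds, and no member passed it, where 0% of all genes tested passed. There were 2165 genes at an unadjusted p under 0.05, among them B2m and Psmb10, and DESeq2 called 170 genes but no member. The interaction was 0.57 on the log2 scale for B2m (95% interval 0.07 to 1.07; unadjusted p = 0.0282, adjusted p = 0.315) and -0.6 for Psmb10 (unadjusted p = 0.0499, adjusted p = 0.348). For H2-K1 it was 0.44 (95% interval -0.08 to 0.97; adjusted p = 0.411), an interval that holds both 0 and a change as large as the H2-K1 difference between Mcl1Δhep and WT livers. Nlrc5 had 0.55 (adjusted p = 0.486) and, without Mcl1Δhep library 1, 0.97 (adjusted p = 0.0316), in a fit where 1574 genes (10.2%) passed in place of 0.

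Averaged over both Sting1 backgrounds, H2-K1 was the only member past the threshold. Its mean Mcl1 effect was -0.47 ± 0.12 on the log2 scale (95% interval -0.73 to -0.2; adjusted p = 0.0223), a level 27.6% lower. Thus 1 of 10 members was called, where 16.7% of all genes tested were called 6.83% as lower and 9.9% as higher. All 10 members had negative estimates, from -0.47 to -0.11, with a median of -0.19 beside -0.019 for all genes tested. B2m stood at -0.25 (adjusted p = 0.158), Nlrc5 at -0.37 (adjusted p = 0.176), Tap2 at -0.3 (adjusted p = 0.15) and H2-D1 at -0.11 (adjusted p = 0.554), and the other 5 members had adjusted p from 0.421 to 0.515. The H2-K1 call was lost in 5 of the 12 fits that left out 1 library (WT library 3, Mcl1Δhep library 2, Sting1-/- library 3, and double mutant libraries 1 and 2), with differences from -0.53 to -0.40 and adjusted p from 0.0117 to 0.0585. Without Mcl1Δhep library 1, Nlrc5 (-0.58, adjusted p = 0.00657) and Tap2 (-0.39, adjusted p = 0.0479) passed as well, in a fit where 27.8% of all genes tested passed. Among the other pathway genes, Erap1 (-0.52, adjusted p = 0.0146) and H2-Q7 (-0.54, adjusted p = 0.0472, a call held, among fits leaving out 1 library, only without WT library 2, Mcl1Δhep library 3 or Sting1-/- library 2) were lower, and H2-M2 (2.8), H2-Q1 (1.4, adjusted p = 0.0257, a call lost in 5 of the 12 fits, without WT library 3, Mcl1Δhep library 3, Sting1-/- library 1 or 2, or double mutant library 2), Irf8 and Ifngr1 were among those that were higher.

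As a description over the 12 livers, Pearson's r was 0.89 between Psmb9 and Psmb8, 0.88 between Psmb10 and Psmb8, 0.88 between B2m and H2-K1, 0.81 between Tapbp and Tap2, and 0.71 between H2-D1 and H2-K1, while Nlrc5 had r of -0.30, -0.31 and -0.21 with Psmb8, Psmb9 and Psmb10. The genes outside the members with the profile most like the mean of the 10, among 12549 compared over the 12 libraries, were Kars1 (r = 0.901), Mdh1 (0.893), Irgm2 (0.887), Abcd4 (0.876) and Fhod3 (0.862). All 12 points share the genotypes and library features given above.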

How the data were processed

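Liver RNA from 12 mice was sequenced, and the authors deposited 1 table of raw gene counts per library, made with STAR and featureCounts on GRCm39 according to the submitters' processing notes; the strand setting is not given in the sources used here. The 12 tables were joined by Ensembl identifier. Counts were fitted with edgeR 4.0.16 in R 4.3.3 (filterByExpr by group, TMM, quasi-likelihood test, 1 coefficient per genotype, all 12 libraries sharing the dispersion), and adjusted by Benjamini-Hochberg over 15070 genes; DESeq2 1.42.0 was an alternative. CPM were computed from the counts with TMM library sizes. On counts simulated for Mcl1Δhep against WT over 15086 tested genes, edgeR recovered 199 of 200 genes changed by 2 on the log2 scale, with 9 false calls. The simulation gave every gene the same dispersion, and its change was larger than any member difference reported here. It therefore checks the code and does not measure how well differences of the members' size are found.

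The members and lists were chosen with earlier results of these data known. The text names all members, Mcl1 and Sting1, pathway genes past the threshold in either Mcl1 comparison or in their mean, a fixed set of regulators and proteasome genes (1 of them is not reported here), and the 5 genes most alike; individual values are given where a result turns on them. Promoter letters were revised after the H2-K1 window was seen.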

Additional observations from a re-analysis of the deposited data

How the results depend on the processing

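Replicate numbers were shared by the groups, but the labels do not say that a number marks anything common, and the deviations of same-numbered libraries correlated between -0.541 and 0.251, so they were not taken as pairs; with the number as a block, 2 members were called in Mcl1Δhep against WT (H2-K1 -0.69, adjusted p = 0.0115; B2m -0.54, adjusted p = 0.0414) and 1 in the mean Mcl1 effect, H2-Q1 (1.9, adjusted p = 0.0584), Canx (adjusted p = 0.0599) and Uggt1 (adjusted p = 0.0568) lost their calls, and Psmb9 turned to -0.0016. In Mcl1Δhep against WT, 1 member was called under upper-quartile scaling, which moved the median of all genes to 0.133, and 1 without a filter on low counts. None was called with the structured RNA share, Y-linked expression or pan-leukocyte markers as a covariate, or with the libraries of these 2 groups alone (H2-K1 -0.66, adjusted p = 0.103). Over all genes, these 4 fits called 417, 1531, 0 and 1178 in place of 3050, and in double mutant against Sting1-/- livers the Y-linked and pan-leukocyte covariates and the 2 groups alone called 45, 1 and 17, and DESeq2 456, in place of 121. In the mean Mcl1 effect the structured RNA covariate called 1583 and the pan-leukocyte covariate 1 in place of 2522 genes, and, of the members, 0 were called under upper-quartile scaling and with pan-leukocyte markers as a covariate. The pan-leukocyte covariate moved the median of the members to -0.41 in Mcl1Δhep against WT and to -0.34 in the mean effect, and H2-K1 was then -0.71 ± 0.40 (SE; adjusted p = 0.863). This covariate did not overlap between WT and Mcl1Δhep livers, so the fit cannot tell it apart from genotype.

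The values that changed sign were in Mcl1Δhep against WT unless another comparison is named, and apart from Sting1 none was called with or without the change. With the structured RNA share they were Tap2 (0.04), Psmb8 (-0.33), Psmb9 (-0.48) and Psmb10 (-0.14). With Y-linked expression they were Psmb8 (-0.14), Psmb9 (-0.08), Psmb10 (-0.15) and, in double mutant against Sting1-/- livers, B2m (-0.004). With pan-leukocyte markers they were Tap2 (0.0016), Psmb8 (-0.24), Psmb9 (-0.41), Psmb10 (-0.11) and Sting1 (-0.15), which was called without that covariate. With the heavy chains summed, the sum took the place of H2-K1. The value of that sum, not of H2-K1 alone, was -0.02 in double mutant against Mcl1Δhep livers. The cause was not tested for any of these.

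Leaving out 1 library gave 0 to 3 called members in Mcl1Δhep against WT, 0 to 2 in double mutant against Mcl1Δhep, 0 to 1 in the interaction and 0 to 3 in the mean effect, and the median of the interaction ran from 0.03 to 0.30. H2-K1 ran from -0.82 to -0.56 and B2m from -0.66 to -0.41 in Mcl1Δhep against WT, with Psmb8 from -0.15 to 0.19, Psmb9 from -0.22 to 0.23 and Psmb10 from -0.01 to 0.27. In double mutant against Sting1-/- livers B2m ran from -0.01 to 0.08, and in Sting1-/- against WT livers H2-K1 ran from -0.20 to 0.04.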
